A study of Mus musculus with 12 samples.

Results

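The genes of the G1 cell cycle switch were examined by RNA-seq in cultured CT26 cells, a mouse colorectal cancer line, with knocked-out or wild-type Mll3. The set holds 10 genes chosen by symbol for their role: the D cyclins Ccnd1, Ccnd2 and Ccnd3, their kinases Cdk4 and Cdk6, the E cyclins Ccne1 and Ccne2, their kinase Cdk2, the inhibitor gene Cdkn1b and the retinoblastoma gene Rb1. All 10 had a row among the 17718 genes of the count table, and all 10 were among the 13013 genes with enough counts to be tested. The Mll3 knock-out and the Mll3 wild-type each have 3 libraries of polyadenylated RNA, with the same batch date and no other treatment. Mll3, now named Kmt2c, encodes a histone H3 lysine methyltransferase that acts at enhancers. The labels do not say whether the knock-out libraries come from 1 clone, several clones or a pool of edited cells. They also do not say whether 1 guide RNA or several were used, nor whether libraries of a genotype come from separate cultures. The p-values thus cover only how far these libraries vary, and that variation may be technical. The series also has 4 CUT&Tag and 2 single-cell samples, which were not analysed here.

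In G1, D cyclins bind CDK4 or CDK6, and E cyclins bind CDK2. These kinases phosphorylate the retinoblastoma protein, which otherwise holds E2F transcription factors in check, and freed E2F turns on genes of DNA synthesis, among them the E cyclins. p27, the product of Cdkn1b, binds and inhibits cyclin E with CDK2 and also associates with cyclin D complexes. Amounts and activity of these proteins depend heavily on phosphorylation and degradation, which RNA counts do not measure.

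The libraries held 9786242, 11129754 and 10001732 counts in the knock-out and 13406013, 10278950 and 9559658 counts in the wild-type. Levels are given as CPM, which are read counts relative to library size, scaled by TMM factors, and 1 count was worth 0.0746 to 0.105 CPM before that scaling. Positions are those of RefSeq on GRCm38.p6. The targeted gene Kmt2c (ENSMUSG00000038056, chromosome 5, 25271795 to 25498855) had 15.96, 11.16 and 14.80 CPM in the knock-out libraries, against 24.91, 26.21 and 25.01 CPM in the wild-type libraries. Its log2 fold change was -0.87 (SE 0.129, edgeR adjusted p = 4.33e-08), so the transcript was lower but not absent; reads summed along a gene do not reveal an edited exon. Of 10 colon epithelial markers, 4 had a row; their summed level was 161 to 174 CPM in the knock-out and 53.0 to 55.5 CPM in the wild-type, and Epcam, Cdh1, Krt19, Cdx2, Lgr5 and Muc2 had none. Of 6 leukocyte markers, 3 had a row, with sums of 8.65 to 10.7 CPM in the knock-out and 0.323 to 1.22 CPM in the wild-type, most of the knock-out sum being Lyz2. Of 6 fibroblast and endothelial markers, 5 had a row, with sums of 1316 to 1354 CPM in the knock-out and 1006 to 1023 CPM in the wild-type. The part of these marker differences in the results was not tested.

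Between knock-out and wild-type cells, 6 of the 10 members rose and 2 fell, and Cdkn1b and Rb1 did not pass the test (edgeR quasi-likelihood test, Benjamini-Hochberg adjusted p under 0.05 over all genes tested). Ccne1 rose 2.28-fold, Ccnd3 1.48-fold, and Cdk4, Ccne2, Cdk2 and Ccnd1 between 1.17-fold and 1.23-fold, while Ccnd2 and Cdk6 fell. Of all genes tested, 66.2% passed the same threshold, 33.1% higher and 33.2% lower, so a call by itself sets no member apart. The median absolute log2 fold change was 0.29 over the members and 0.41 over all genes tested. At least 2-fold calls were made for 1 member, Ccne1, and for 15.1% of all genes tested. Groups did not overlap for 8 of 10 members and for 68.7% of all genes tested. In bulk RNA, a change in the share of cells in a cell cycle phase and a change in RNA per cell cannot be told apart.

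**Figure D1:**
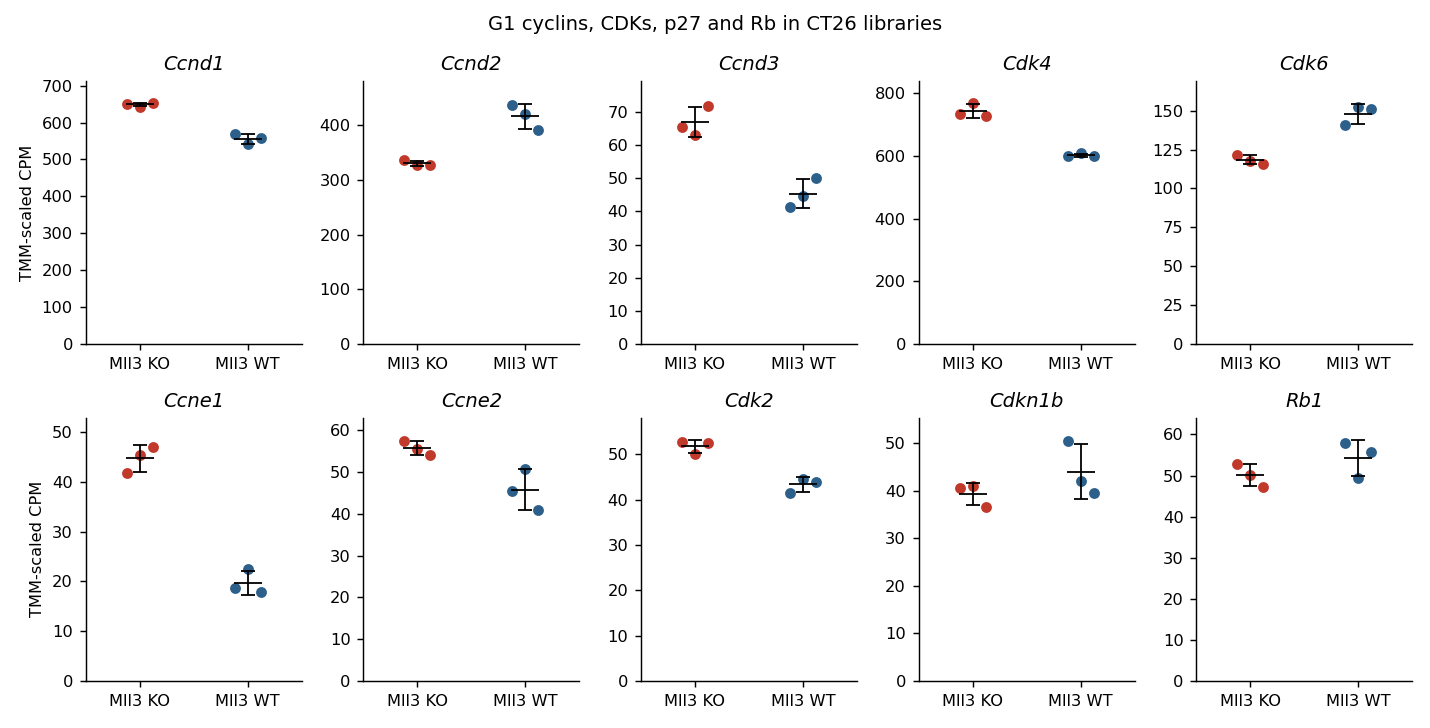
TMM-scaled CPM of the 10 members (vertical axes, from 0) in the 3 Mll3 knock-out libraries (red, left) and the 3 wild-type libraries (blue, right) of each panel; points are libraries, horizontal marks are means and bars are SD. The 3 knock-out values of Ccne1, 41.8 to 47.1 CPM, lie clear of the wild-type values, 17.8 to 22.4 CPM, whereas the groups overlap for Cdkn1b and Rb1.

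Among the D cyclins, which link growth signals to the cell cycle, Ccnd1 and Ccnd3 rose and Ccnd2 fell. Ccnd1 (ENSMUSG00000070348, chromosome 7, 144929931 to 144939831) had 651, 643 and 652 CPM in the knock-out libraries, against 568, 543 and 557 CPM in the wild-type libraries. All 3 knock-out libraries were above all 3 wild-type libraries, but the step was small, with a log2 fold change of 0.22 (SE 0.0347, edgeR adjusted p = 1.25e-07). Ccnd2 (ENSMUSG00000000184, chromosome 6, 127125162 to 127152188) had 336, 328 and 327 CPM in the knock-out and 437, 420 and 391 CPM in the wild-type. Every knock-out library was below every wild-type library, and the log2 fold change was -0.33 (SE 0.0397, edgeR adjusted p = 1.07e-10). Ccnd3 (ENSMUSG00000034165, chromosome 17, 47505051 to 47599689) had the fewest counts of the D cyclins, at 65.5, 63.0 and 71.8 CPM in the knock-out and 41.4, 44.6 and 49.9 CPM in the wild-type. Its groups did not overlap either, and it rose by 0.56 on the log2 scale (SE 0.0772, edgeR adjusted p = 5.44e-09).

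The opposite steps moved the make-up of the D cyclin reads, a measure within each library that needs no scaling between libraries. Ccnd2 gave 31.9%, 31.7% and 31.1% of the reads of the D cyclins in the knock-out libraries, against 41.8%, 41.7% and 39.2% in the wild-type libraries. Ccnd1 gave 61.9% to 62.2% in the knock-out and 53.9% to 55.8% in the wild-type, and Ccnd3 gave 6.10% to 6.83% in the knock-out and 3.96% to 5.00% in the wild-type. These are shares of reads, which depend on transcript length, so they describe a shift between genotypes and not which cyclin has more molecules. The ratio of Ccnd1 to Ccnd2 reads averaged 1.96 ± 0.0292 in the knock-out and 1.34 ± 0.0747 in the wild-type (SD, n = 3 each; exact two-sided permutation p = 0.1), a 1.47-fold difference without overlap. The ratio of Ccnd3 to Ccnd2 reads averaged 0.202 ± 0.0151 in the knock-out and 0.110 ± 0.0167 in the wild-type (SD, n = 3 each; exact two-sided permutation p = 0.1). With 3 libraries against 3, 0.1 is the smallest p that this test allows, so no such ratio can pass 0.05. In all, 7 ratios were computed, and each had exact permutation p = 0.1, also after Benjamini-Hochberg adjustment of the exact permutation values. Each ratio sets a member with a higher log2 fold change over one with a lower, so their common direction follows from the choice of pairs.

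The kinases of the D cyclins also moved apart, with Cdk4 higher and Cdk6 lower in the knock-out. Cdk4 (ENSMUSG00000006728, chromosome 10, 127063535 to 127067288) had 734, 768 and 728 CPM in the knock-out libraries, against 599, 608 and 599 CPM in the wild-type libraries. The groups were separate, and Cdk4 rose by 0.30 on the log2 scale (SE 0.0343, edgeR adjusted p = 2.38e-11). Cdk6 (ENSMUSG00000040274, chromosome 5, 3341004 to 3531008) had 122, 118 and 116 CPM in the knock-out and 141, 152 and 151 CPM in the wild-type. It was lower in every knock-out library, with a log2 fold change of -0.32 (SE 0.0511, edgeR adjusted p = 2.02e-07). The ratio of Cdk4 to Cdk6 reads was 6.28 ± 0.246 in the knock-out and 4.07 ± 0.163 in the wild-type (SD, n = 3 each; exact permutation p = 0.1), or 1.54-fold higher in the knock-out.

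RefSeq promoter windows on GRCm38.p6, from 250 bases before to 50 bases after a start site, were matched for 6 of the 10 members: Ccnd3, Cdk4, Cdk6, Ccne1, Cdk2 and Cdkn1b, in 7 windows. They were searched on both strands for the E-box CACGTG, which MYC with MAX is known to bind, for the E2F motif as TTTCCCGC, TTTCGCGC, TTTGCCGC or TTTGGCGC, and for the AP-1 motif TGANTCA. No match of one motif overlapped a match of another in these windows. Of 32851 RefSeq promoter windows of the same length, 7.15% held the E-box, 2.26% the E2F motif and 7.81% the AP-1 motif. The Cdk4 window held 4 copies of CACGTG and the Cdk6 window held 1, so the E-box stood in both a gene that rose and a gene that fell. The Cdk2 window held 1 E2F motif, and the windows of Ccne1, Ccnd3 and Cdkn1b held none of the motifs. Only the listed letters were matched, so a site with other letters would be missed. The 250 bases before the start are shown for Cdk4, for its repeated E-boxes, for Cdk2, as the only window with the E2F motif, and for Ccne1, the member with the largest change; capitals mark the motif matches. A match describes the letters only and is no evidence of binding.
Cdk4 (chr10:127063285-127063534, plus strand, GRCm38.p6): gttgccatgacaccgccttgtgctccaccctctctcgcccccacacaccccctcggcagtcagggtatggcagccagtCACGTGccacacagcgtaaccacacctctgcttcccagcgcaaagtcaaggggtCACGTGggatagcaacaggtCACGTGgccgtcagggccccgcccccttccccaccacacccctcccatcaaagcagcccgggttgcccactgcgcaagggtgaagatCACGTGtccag
Cdk2 (chr10:128705052-128705301, minus strand, GRCm38.p6): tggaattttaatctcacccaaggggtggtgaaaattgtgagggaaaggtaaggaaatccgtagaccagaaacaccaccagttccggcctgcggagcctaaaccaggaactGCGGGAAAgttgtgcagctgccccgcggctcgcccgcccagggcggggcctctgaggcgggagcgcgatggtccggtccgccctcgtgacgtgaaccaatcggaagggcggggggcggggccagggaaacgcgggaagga
Ccne1 (chr7:38107491-38107740, minus strand, GRCm38.p6): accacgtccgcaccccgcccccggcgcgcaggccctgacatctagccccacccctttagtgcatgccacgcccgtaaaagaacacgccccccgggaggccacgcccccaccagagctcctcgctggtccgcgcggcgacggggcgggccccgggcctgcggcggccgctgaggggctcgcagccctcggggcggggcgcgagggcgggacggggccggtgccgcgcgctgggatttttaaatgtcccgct

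Both E cyclins, which drive entry into S phase with CDK2, rose, and Ccne1 had the largest change of the members. Ccne1 (ENSMUSG00000002068, chromosome 7, 38097984 to 38107490) had 41.8, 45.5 and 47.1 CPM in the knock-out libraries, against 18.8, 22.4 and 17.8 CPM in the wild-type libraries. The lowest knock-out library was well above the highest wild-type library, and Ccne1 rose by 1.19 on the log2 scale (SE 0.101, edgeR adjusted p = 1.18e-15). It was the only member to pass a test against a 1.5-fold change, which 20.0% of all genes tested passed (edgeR glmTreat), and 10.9% of all genes tested had a larger absolute log2 fold change. Ccne2 (ENSMUSG00000028212, chromosome 4, 11190433 to 11204779) had 57.5, 55.4 and 54.1 CPM in the knock-out and 45.5, 50.7 and 40.9 CPM in the wild-type. Its groups did not overlap, though by a small margin, and the log2 fold change was 0.28 (SE 0.0795, edgeR adjusted p = 0.00152).

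The E cyclin reads thus shifted towards Ccne1. It gave 42.1%, 45.1% and 46.5% of the reads of both E cyclins in the knock-out libraries, against 29.2%, 30.7% and 30.3% in the wild-type libraries. The ratio of Ccne1 to Ccne2 reads was 0.806 ± 0.0725 in the knock-out and 0.430 ± 0.0156 in the wild-type (SD, n = 3 each; exact permutation p = 0.1), 1.87-fold higher in the knock-out. The tested genes whose log2 CPM followed that of Ccne1 most closely over the 6 libraries were Pqlc3, Akr1c14 and P4ha1, with a Pearson r of 0.9997, 0.9993 and 0.9991. The 6 libraries fall into the 2 genotypes, 154 genes had an r of at least 0.99, and the likeness is given as a description only.

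Cdk2, the kinase partner of the E cyclins, rose slightly. Cdk2 (ENSMUSG00000025358, chromosome 10, 128697938 to 128705051) had 52.7, 50.2 and 52.6 CPM in the knock-out libraries, against 41.6, 44.7 and 44.0 CPM in the wild-type libraries. The groups were separate, with a log2 fold change of 0.26 (SE 0.0787, edgeR adjusted p = 0.00361), about the size of that of Ccne2.

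Cdkn1b, the gene of the CDK inhibitor p27, did not pass the test. It had 40.5, 41.0 and 36.7 CPM in the knock-out libraries, against 50.6, 42.0 and 39.5 CPM in the wild-type libraries (ENSMUSG00000003031, chromosome 6, 134920401 to 134925525). The groups overlapped, wild-type replicate 1 standing above the rest, and the log2 fold change of -0.17 had a 95% interval of -0.35 to 0.01 (SE 0.0888, edgeR adjusted p = 0.0915). Without wild-type replicate 3 it passed (-0.25, edgeR adjusted p = 0.00994). Leaving out wild-type replicate 1 instead gave -0.0507 (edgeR adjusted p = 0.669). The value was -0.0095 under upper-quartile scaling and -0.0453 under library size alone (edgeR adjusted p = 0.932 and 0.665). Relative to Cdkn1b, the reads of Ccne1 and of Cdk2 were higher in every knock-out library than in any wild-type library. Ratios to Cdkn1b were not computed for Ccnd2 and Cdk6, the members that fell. The ratio of Ccne1 to Cdkn1b reads was 1.14 ± 0.129 in the knock-out and 0.452 ± 0.0814 in the wild-type (SD, n = 3 each; exact permutation p = 0.1), a 2.54-fold difference. That of Cdk2 to Cdkn1b was 1.32 ± 0.105 in the knock-out and 1.00 ± 0.157 in the wild-type (SD, n = 3 each; exact permutation p = 0.1).

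Rb1, the gene of the retinoblastoma protein on which these kinases act, did not pass the test either. It had 52.8, 50.2 and 47.3 CPM in the knock-out libraries, against 57.9, 49.5 and 55.7 CPM in the wild-type libraries (ENSMUSG00000022105, chromosome 14, 73192858 to 73325951). The groups overlapped, and the log2 fold change was -0.12 with a 95% interval of -0.28 to 0.03 (SE 0.0778, edgeR adjusted p = 0.167). It passed narrowly without wild-type replicate 2 (-0.19, edgeR adjusted p = 0.0498), and its sign turned under upper-quartile scaling (0.0363) and under library size alone (0.000464). The ratio of Ccnd1 to Rb1 reads was 13.0 ± 0.742 in the knock-out and 10.3 ± 0.624 in the wild-type (SD, n = 3 each; exact permutation p = 0.1).

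**Figure D2:**
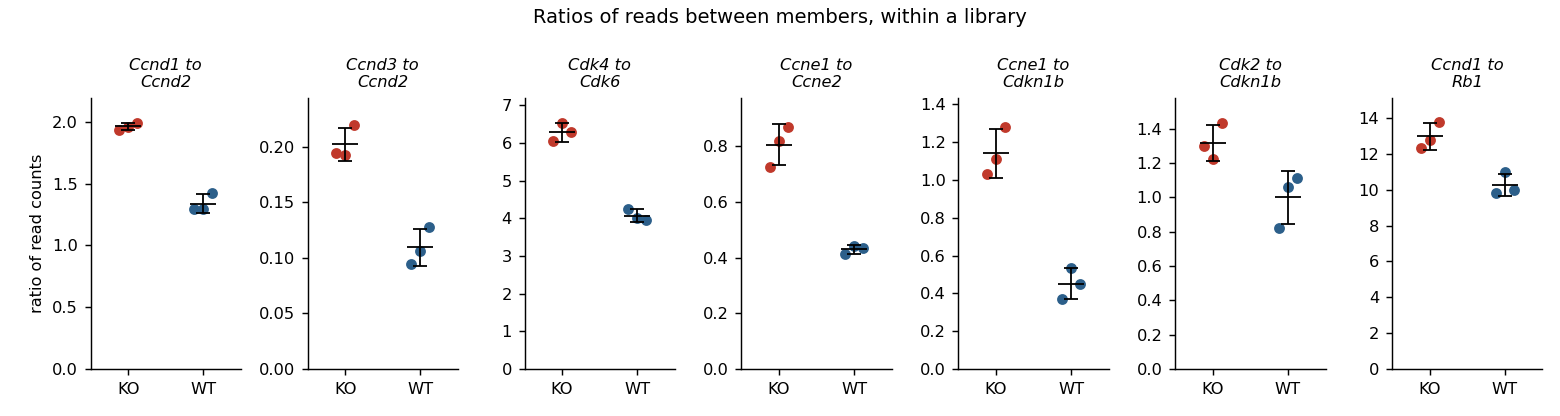
Ratios of read counts between pairs of members (vertical axes, no unit, from 0) in each of the 3 knock-out libraries (red, left) and 3 wild-type libraries (blue, right); horizontal marks are means and bars are SD. In all 7 ratios the knock-out libraries lie above the wild-type libraries, with the largest fold, 2.54, for Ccne1 to Cdkn1b (1.03 to 1.28 in the knock-out and 0.371 to 0.534 in the wild-type). Each pair sets a member with a higher log2 fold change over one with a lower, so the common direction follows from the choice of pairs.

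Fold changes in these cells differed by chromosome, so each member was set beside the tested genes nearest to it, up to 20 on each side on the GRCm38.p6 map. The median log2 fold change of all tested genes of a chromosome was 0.36 on chromosome 10, which holds Cdk2 and Cdk4, and 0.35 on chromosome 14, which holds Rb1; on chromosomes 4, 5, 6, 7 and 17, which hold the other members, it lay between -0.01 and 0.08. Ccne1 lay above most of its surroundings: its 40 neighbours had a median of -0.07, and 3 of them were higher than Ccne1. Cdk2 had the level of change of its neighbours, with a median of 0.24 over 30 genes, leaving a difference of 0.0146. Cdk4 was 0.19 above the median of its 40 neighbours, but its difference from the median of its chromosome was -0.0538. Rb1 differed by -0.44 from the median of its 40 neighbours, which was 0.32, and 31 of them were higher than Rb1. For Ccnd3 the difference from the neighbours was 0.43, for Ccne2 0.30, for Ccnd1 0.16, for Cdk6 -0.26, for Ccnd2 -0.29 and for Cdkn1b -0.09. These differences are descriptions without a test, and the part of DNA copy number in them was not tested.

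**Figure D3:**
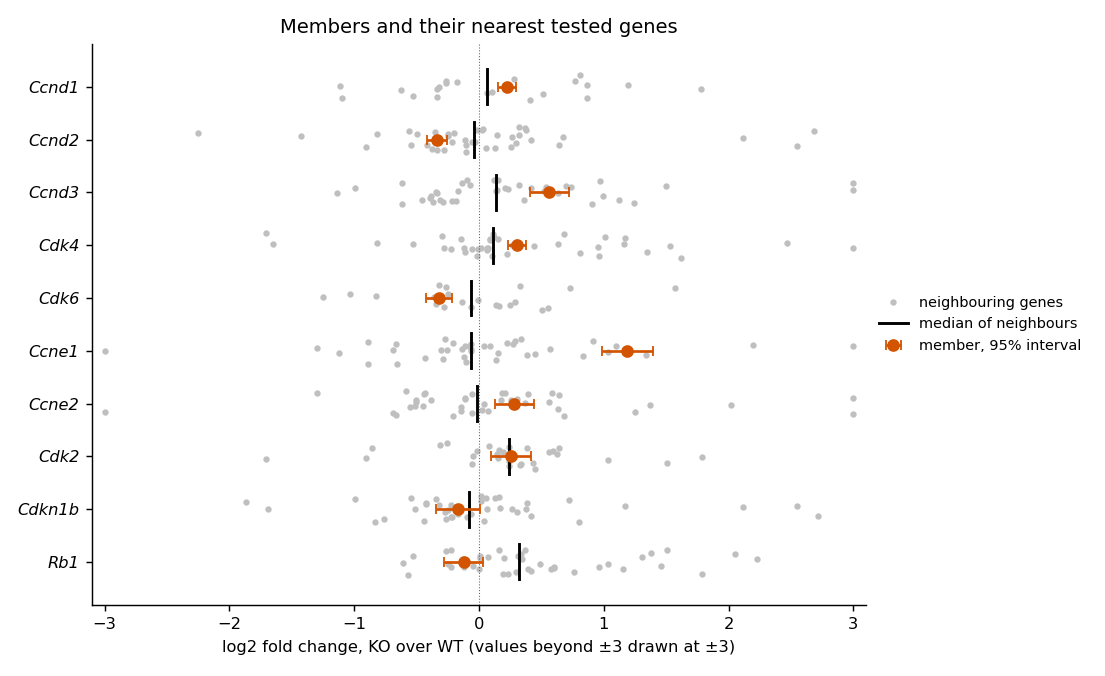
Log2 fold change of each member, knock-out over wild-type (orange point with its 95% interval), with the tested genes nearest to it on the same chromosome (grey points, 21 to 40 per member, values beyond ±3 drawn at ±3) and their median (black line). Ccne1 lies far to the right of its neighbours' median of -0.07, Cdk2 lies on the median of 0.24, and Rb1 lies to the left of the median of 0.32.

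Several members share bases with another gene on the map. Reads in such overlaps may be counted for either gene or for none, and whether counting used the strand was not given in the sources used here. Bysl, which overlaps Ccnd3, fell by 0.39 on the log2 scale (edgeR adjusted p = 2.17e-07) while Ccnd3 rose. Tspan31, which overlaps Cdk4, fell by 0.30 (edgeR adjusted p = 3.05e-07) while Cdk4 rose. Both pairs share only their ends: Ccnd3 ends at 47599689 and Bysl starts at 47599331, while Cdk4 ends at 127067288 and Tspan31 starts at 127067287. Lpar6, which lies within the span of Rb1, rose by 0.39 (edgeR adjusted p = 0.00166). LTO1, which overlaps Ccnd1, rose by 0.11 (edgeR adjusted p = 0.0246), and Ints8, which overlaps Ccne2, had a log2 fold change of 0.04 (edgeR adjusted p = 0.541). 9330179D12Rik, which overlaps Ccnd2, averaged 1.37 CPM in the knock-out and 3.73 CPM in the wild-type. Pmel, whose span holds Cdk2, averaged 0.656 CPM in the knock-out and 0.0961 CPM in the wild-type and was not tested. Both had far fewer reads than the member they overlap.

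The direction of the 8 called members was the same under all 4 scalings. Over all genes tested, the median log2 fold change was 0.02 with TMM, 0.17 with upper-quartile scaling and 0.14 when library size was the only scaling, and the values of the members shifted upwards by about as much. Ccnd2 then had -0.18 and -0.21 and Cdk6 had -0.16 and -0.20 under those other scalings, and both were still called. The calls over all genes were 4301 higher and 4320 lower with TMM, 5587 and 3183 with upper-quartile scaling, and 5266 and 3440 with library size alone, so 49.9%, 63.7% and 60.5% of them were higher.

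**Figure D4:**
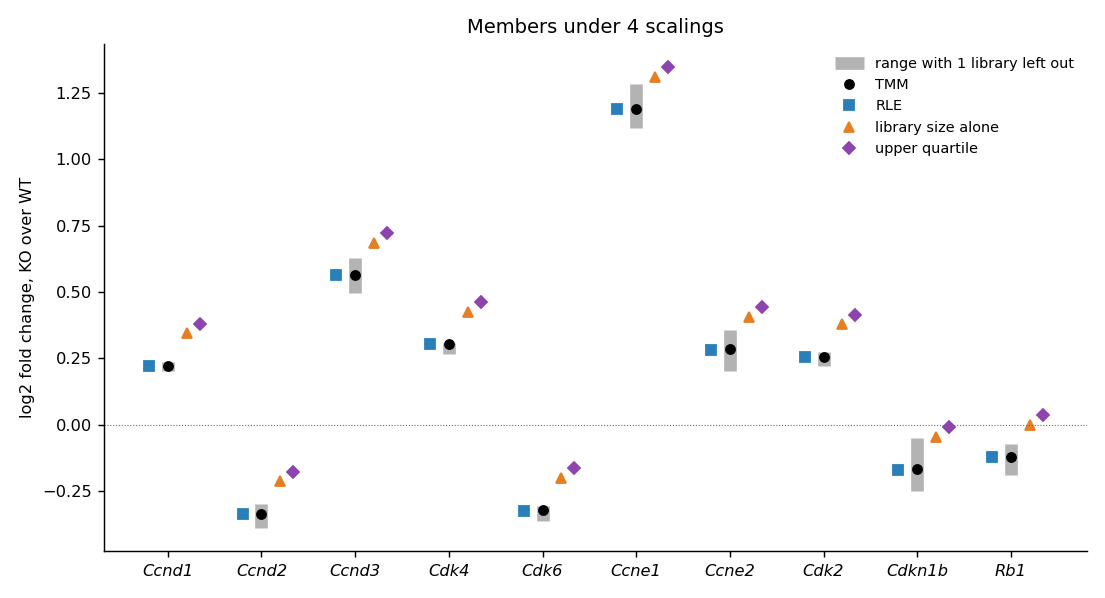
Log2 fold change of each member, knock-out over wild-type (vertical axis), with TMM (black circles), RLE (blue squares), library size alone (orange triangles) and upper-quartile scaling (purple diamonds); grey bars span the TMM values with 1 library left out. The 6 members that rose stay above 0 and Ccnd2 and Cdk6 stay below it, while Rb1 reaches 0.0363 with upper-quartile scaling.

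The rest of the pathway was read from lists chosen by role. Of 79 such genes with a row, 78 were tested, 43 rose and 21 fell, with a median log2 fold change of 0.24, against 0.02 over all genes tested. Of all genes tested, 66.2% were called, 33.1% higher and 33.2% lower, and the counts of each list below stand beside those shares. With upper-quartile scaling, 52 were higher and 13 lower, and with library size alone 50 and 15, so the split of the smaller changes depends on the scale.

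The other inhibitors of G1 kinases moved in different directions. Cdkn1a, the gene of p21, a relative of p27, had 490, 505 and 497 CPM in the knock-out libraries and 386, 396 and 387 CPM in the wild-type libraries. It rose without overlap, by 0.35 on the log2 scale (SE 0.0365, edgeR adjusted p = 1.63e-12). Cdkn2c, the gene of p18, an inhibitor of CDK4 and CDK6, rose by 0.43 (SE 0.106, edgeR adjusted p = 0.000349). Cdkn2d, the gene of p19 of the same INK4 family, had a log2 fold change of -0.33 (SE 0.124, edgeR adjusted p = 0.0161), a call lost with upper-quartile scaling (-0.18, edgeR adjusted p = 0.210), with library size alone (-0.21, edgeR adjusted p = 0.129) and without either of 2 knock-out libraries (edgeR adjusted p = 0.0591 and 0.0549). Cdkn1c, the gene of p57, had 1, 3 and 4 counts in the knock-out and 0 in each wild-type library, too few to be tested. Of the 4 INK4 genes listed, 2 had a row, and Cdkn2a and Cdkn2b had none.

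Of the other pocket proteins, which resemble Rb, Rbl2 (p130) rose and Rbl1 (p107) fell. Rbl2 had 30.4, 29.8 and 31.0 CPM in the knock-out libraries, against 15.6, 19.2 and 17.1 CPM in the wild-type libraries, a rise of 0.82 on the log2 scale (SE 0.113, edgeR adjusted p = 6.81e-09). It did so on chromosome 8, where its 40 nearest tested genes had a median of -0.51. Rbl1 had 77.53, 74.98 and 84.75 CPM in the knock-out and 101.6, 91.78 and 90.57 CPM in the wild-type, with a log2 fold change of -0.26 (SE 0.0623, edgeR adjusted p = 0.000209), and was not called with upper-quartile scaling (-0.11, edgeR adjusted p = 0.120).

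Of 10 E2F and DP genes, 5 rose and 3 fell, with a median log2 fold change of 0.28. E2f1, an activator of S phase genes and itself a target of E2F, stood at 63.8 ± 2.18 CPM in the knock-out and 42.0 ± 1.40 CPM in the wild-type (SD, n = 3 each). It rose by 0.60 (SE 0.0756, edgeR adjusted p = 4.87e-10), and E2f7, a repressive member, rose by 0.53 (SE 0.0844, edgeR adjusted p = 1.73e-07). E2f4, which works mainly as a repressor with the pocket proteins, fell by 0.59 on the log2 scale (SE 0.0578, edgeR adjusted p = 2.13e-13). Like Rbl2 it lies on chromosome 8, whose median was -0.35, and its difference from that median was -0.24. E2f7 lies on chromosome 10, and its difference from the median there was 0.18. Under upper-quartile scaling, as under library size alone, 1 gene of the list was lower in place of 3.

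Of 22 E2F targets of the G1 to S transition, 16 rose and 3 fell, with a median log2 fold change of 0.26, beside 33.1% higher, 33.2% lower and a median of 0.02 over all genes tested. Tk1, thymidine kinase, rose by 0.95, and the helicase subunits Mcm4 and Mcm7 rose by 0.85 and 0.70; Mcm7 differed from its nearest genes by 0.23. The 3 that fell were Pola1 (-0.24) and Prim1 (-0.20), of the DNA polymerase alpha-primase complex, and Rrm1 (-0.15), a ribonucleotide reductase subunit, named after their values were seen. The direction of the median was the same under the 4 scalings, and the calls lower were 0 under upper-quartile scaling and 1 under library size alone. Of 5 genes in the list of A and B cyclins and CDK1, 4 rose and 0 fell: Ccna2, the S phase cyclin, rose by 0.40, Cdk1 by 0.30 and Ccnf, a cyclin box protein that acts in a ubiquitin ligase, by 0.89. Cdk1 lies on chromosome 10, and its direction turned once the median of that chromosome (difference -0.0613) or of its 40 nearest tested genes (-0.14) was subtracted. Ccna2 differed from its nearest genes by 0.16.

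Among genes that act in or on the turnover of cyclins and p27, 10 of 15 rose and 4 fell, with a median of 0.33. Skp1a, the SCF ligase adaptor, rose by 0.73, Cul4b, a cullin, by 0.58 and Ddb1, the adaptor of CUL4 ligases, by 0.41. The 4 that fell were named after their values were seen. Cul4a, the other CUL4 cullin, had -0.47 and Fbxw7, which recognises cyclin E, -0.52. Ambra1, which recognises D cyclins, had -0.42 and Cks1b, a cofactor in the recognition of p27, -0.11. Among the 10 that rose were Skp2 (0.61) and Fbxo4 (0.29), also named after their values were seen. Cul4a lies on chromosome 8, and its difference from the median of its nearest tested genes was -0.07. Under upper-quartile scaling, as under library size alone, 3 genes of the list were lower in place of 4. Of 6 genes of CDK activation, 2 rose and 2 fell, with a median of -0.02, which upper-quartile scaling turned to 0.14 and library size alone to 0.10. Cdc37, the cochaperone that delivers CDK4 to HSP90, rose by 0.85 and Wee1, an inhibitory kinase, by 0.59, whereas Mnat1, a subunit of the CDK-activating kinase, had a log2 fold change of -0.65.

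Of 10 transcription factors known to act on Cdkn1b or Ccnd1, 2 rose and 5 fell. Fosl1 and Jun, subunits of AP-1, and Myc fell, with log2 fold changes of -1.64, -1.32 and -0.86. The other AP-1 subunits of the list, named after their values were seen, differed in direction: Junb fell (-0.84) and Fos rose (0.85, edgeR adjusted p = 0.00149). Myc stood at 168 ± 2.26 CPM in the knock-out and 305 ± 6.70 CPM in the wild-type (SD, n = 3 each). The median of the list was -0.10, which became 0.05 under upper-quartile scaling and 0.02 under library size alone. Of 5 DREAM and MuvB subunits, which as parts of DREAM hold cell cycle genes in check in resting cells, 1 rose and 2 fell. Lin37 had a log2 fold change of 0.69, Lin52 one of -0.52 and Lin54 one of -0.32. The median of -0.01 became 0.15 under upper-quartile scaling and 0.11 under library size alone, with 3 genes higher under each. The call of Lin52 was lost without wild-type replicate 1 (-0.38, edgeR adjusted p = 0.0564).

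**Figure D5:**
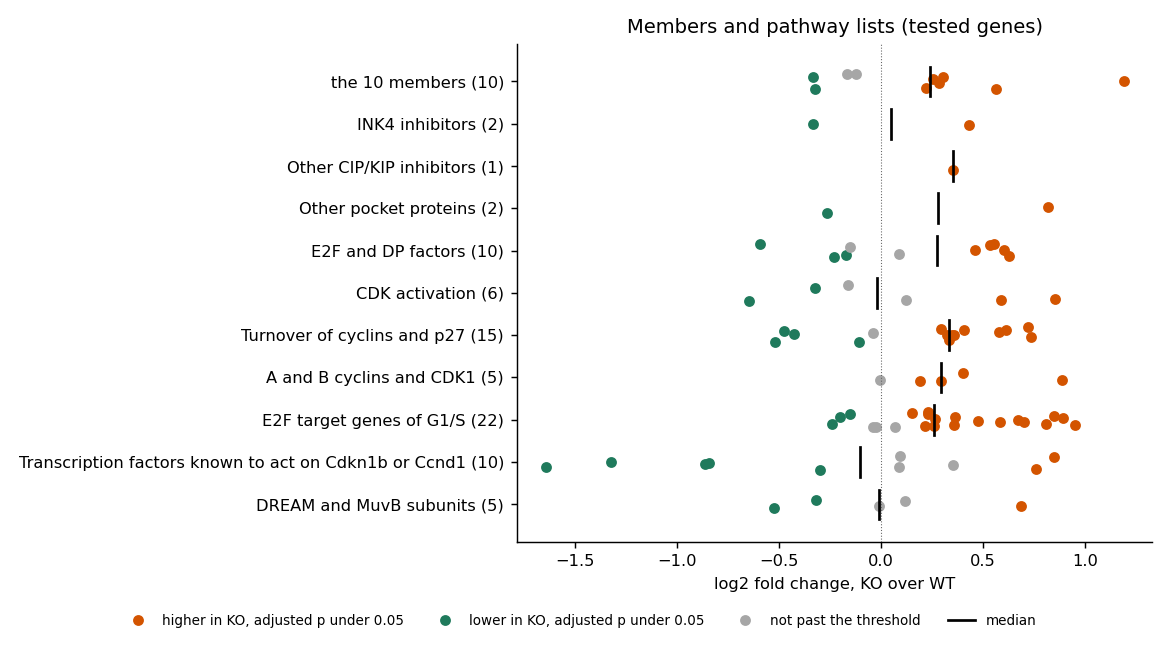
Log2 fold change, knock-out over wild-type (horizontal axis), of the 10 members and of the tested genes of each pathway list (rows, number of genes in parentheses); orange points were higher and green points lower at an adjusted p under 0.05, grey points did not pass, and black lines are medians. Ccne1 at 1.19 is the rightmost point of the members, and Fosl1 at -1.64 is the leftmost point of the plot.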

How the data were processed

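Bulk RNA-seq of CT26 cells was analysed, with 3 Mll3 knock-out and 3 Mll3 wild-type libraries of 9559658 to 13406013 counts. The authors deposited raw counts, whole numbers of reads for each Ensembl gene, for genes above 0 in at least 3 libraries. Per the labels' protocols, the polyA libraries are strand-specific; the tools STAR, HTSeq and fastp and the build mm10 are among those listed, per the submitters' processing notes. Tool versions, annotation release and strand setting were not given in the sources used here. Knock-out columns, named sg1, sg2 and sg3, were assigned to their group only, by these names, since the labels do not tie their numbers to replicates. Whether the numbers stand for guide RNAs or for replicates was not stated.

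In R 4.3.3 with edgeR 4.0.16 and limma 3.58.1, low genes were removed by filterByExpr (minimum count 10, minimum total 15), TMM factors were computed, and genotypes were compared by the robust quasi-likelihood F test, with Benjamini-Hochberg adjustment over 13013 genes at 0.05. SE was derived from the F statistic. The pipeline was tested on simulated data. Ratios use raw counts and an exact permutation test. Symbols were found for 17650 identifiers, and positions come from RefSeq on GRCm38.p6, by symbol. Squared differences between libraries of 1 genotype had medians 2.10 to 3.26 times those of counting noise, so none were merged. Members and lists were chosen with earlier results of these data known. Named are all members, Kmt2c, the 3 smallest p of each list, every listed inhibitor and the 3 genes most like the most changed member; overlapping genes, Lyz2 and those so marked in the text were named after their values were seen. Alternatives were other scalings, filters and thresholds, DESeq2 1.42.0, limma voom, glmTreat, libraries left out and subtraction of chromosome or neighbour medians.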

Additional observations from a re-analysis of the deposited data

How the results depend on the processing

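Of the 8 called members, each kept its direction and its call under 14 of 15 alternative fits or more, and Ccne1 under all 15 (1.12 to 1.35). The exception was glmTreat against a 1.5-fold change, which called 1 member higher and 0 lower (1448 and 1154 of all genes, 9 and 4 of the pathway genes) and did not call Ccnd1 (0.22), Ccnd2 (-0.33), Ccnd3 (0.56), Cdk4 (0.30), Cdk6 (-0.32), Ccne2 (0.28) or Cdk2 (0.26). With 1 library left out, Cdkn1b ranged from -0.25 to -0.0507 and Rb1 from -0.19 to -0.0725, each passing once. Rb1 turned sign with upper-quartile scaling (0.0363) and library size alone (0.000464), and Cdkn1b had -0.0095 and -0.0453; 13 pathway genes were lower with upper-quartile scaling, against 21. The cause was not tested. Less the chromosome median, Cdk4 and Cdk2 turned sign (-0.0538 and -0.10), Ccnd1 had 0.14 and Rb1 -0.47; less the neighbours' median, Ccnd1 had 0.16, Ccnd3 0.43, Cdk4 0.19, Cdk6 -0.26, Cdk2 0.0146 and Rb1 -0.44. With 1 library left out, the log2 ratio of reads, knock-out minus wild-type, ranged from 1.21 to 1.47 for Ccne1 to Cdkn1b. It ranged from 0.27 to 0.49 for Cdk2 to Cdkn1b and from 0.30 to 0.39 for Ccnd1 to Rb1. The range was 0.53 to 0.60 for Ccnd1 to Ccnd2 and 0.79 to 1.01 for Ccnd3 to Ccnd2. Cdk4 to Cdk6 had 0.60 to 0.66 and Ccne1 to Ccne2 0.85 to 0.97. The same fits were tallied for Kmt2c and the tested genes named for the smallest p of each list or as listed inhibitors. Among these, 382 gene and setting pairs kept direction and side and 23 lost the call. Overlapping genes, the genes most like Ccne1 and genes named after their values were seen were not in this tally. Of the latter, Pola1, Prim1 and Rrm1 were no longer called lower with upper-quartile scaling. In the turnover list, whose 4 lower genes were also so named, 3 genes were called lower under that scaling and 3 with library size alone. No paired analysis was possible because the knock-out columns carry no replicate number of the labels. Ratios per kilobase were not run, since transcript lengths were not used here; length cancels in a ratio between genotypes. Counts of 165 or more per library stand behind every member.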
